A study of Mus musculus with 12 samples.

Results

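The FGF target and feedback genes are a small family that cells switch on when fibroblast growth factor (FGF) signalling is active. They were followed across rostral and caudal cortex of mouse embryos at embryonic day 14, with and without the transcription factor AP2gamma, which is encoded by Tfap2c. The 10 genes listed were the ETS transcription factor genes Etv1, Etv4 and Etv5, the receptor antagonist gene Il17rd, the Sprouty genes Spry1, Spry2 and Spry4, the phosphatase gene Dusp6, and the Spred genes Spred1 and Spred2. Every probe set annotated to one of these genes alone was taken, which gave 28 probe sets for 9 genes, out of 34958 probe sets that named a single gene and 18194 genes in all. All 3 probe sets of Etv1 were annotated to a pseudogene, Gm5454, as well, so Etv1 has no value here. Each of the 4 groups held 3 arrays, which the design text calls biological replicates. They were caudal cortex of wild-type mice (WT, animals 4, 6 and 14), caudal cortex of AP2gamma knockout mice (KO, animals 1, 2 and 13), rostral WT cortex (animals 10, 12 and 16) and rostral KO cortex (animals 7, 8 and 15). The knockout allele, any Cre driver and the way the cortex was divided are not given in the sources used here, and every array carried an animal number of its own.

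In the developing forebrain FGF ligands are made at the rostral midline, and their signal runs through FGF receptors, RAS and the kinases of the ERK cascade. ETS factors of the Etv1, Etv4 and Etv5 group are transcribed in response and carry out part of the programme in the nucleus. The same signal turns on its own brakes: Il17rd, also called Sef, at the membrane, Sprouty and Spred proteins at the level of RAS and RAF, and Dusp6, which removes phosphate from ERK in the cytoplasm. Transcripts of this family are therefore widely used as a readout of where FGF signalling is active, and rostral FGF is known for setting frontal areas of the cortex.

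The values were log2 signals that the authors had already normalised, and the 12 arrays had medians between 5.21 and 5.22. A gene was tested when a probe set of it rose above 5.21 (the table's median) on 3 arrays or more, and its brightest tested probe set stood for it. This left 11785 genes in all and 8 of the family, of which Spry4 passed with 3 arrays above the limit and the other 7 with all 12. Etv4 lay below the limit on every array. Tfap2c, the targeted gene, read between 7.44 and 7.86 in caudal KO, 8.64 and 9.19 in caudal WT, 8.09 and 8.63 in rostral KO, and 8.54 and 9.06 in rostral WT cortex. The library labelled rostral KO animal 8 (8.63) lay above rostral WT animal 16 (8.54), so this gene did not separate the rostral genotypes on every array. Of 12 listed cerebral cortex markers the 10 that had a probe set were all bright enough to test, and their summed signal lay between 0.911 and 1.15 times its mean over the arrays. Xist, transcribed from the inactive X chromosome, was high on 2 arrays, caudal WT animal 6 and rostral WT animal 12.

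Of the 8 tested members 6 were higher in rostral than in caudal cortex when WT and KO were averaged: Il17rd, Etv5, Spry1, Dusp6, Spred2 and Spred1. None was lower. Over all genes 3.21% were higher and 1.26% lower by the same rule, which was an adjusted p under 0.05 in limma with Benjamini-Hochberg adjustment over all 11785 genes. The median difference of the 8 members was 0.53 on the log2 scale, against 0.02 over all genes tested. In WT cortex alone 2 of 8 passed, and in KO cortex alone 2 of 8 passed, in each case Etv5 and Il17rd, against 0.687% and 0.730% of all genes. Every rostral array lay above every caudal array for 6 of 8 members in WT (8.99% of all genes) and for 7 of 8 in KO (12.1%). The 6 genes that passed in the average showed no such overlap in either genotype, against 3.40% of all genes. Without both arrays of high Xist no member passed in WT (Il17rd 1.87, adjusted p = 0.080, and Etv5 1.32, 0.092), while 7 of 8 passed in the average.

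**Figure D1:**
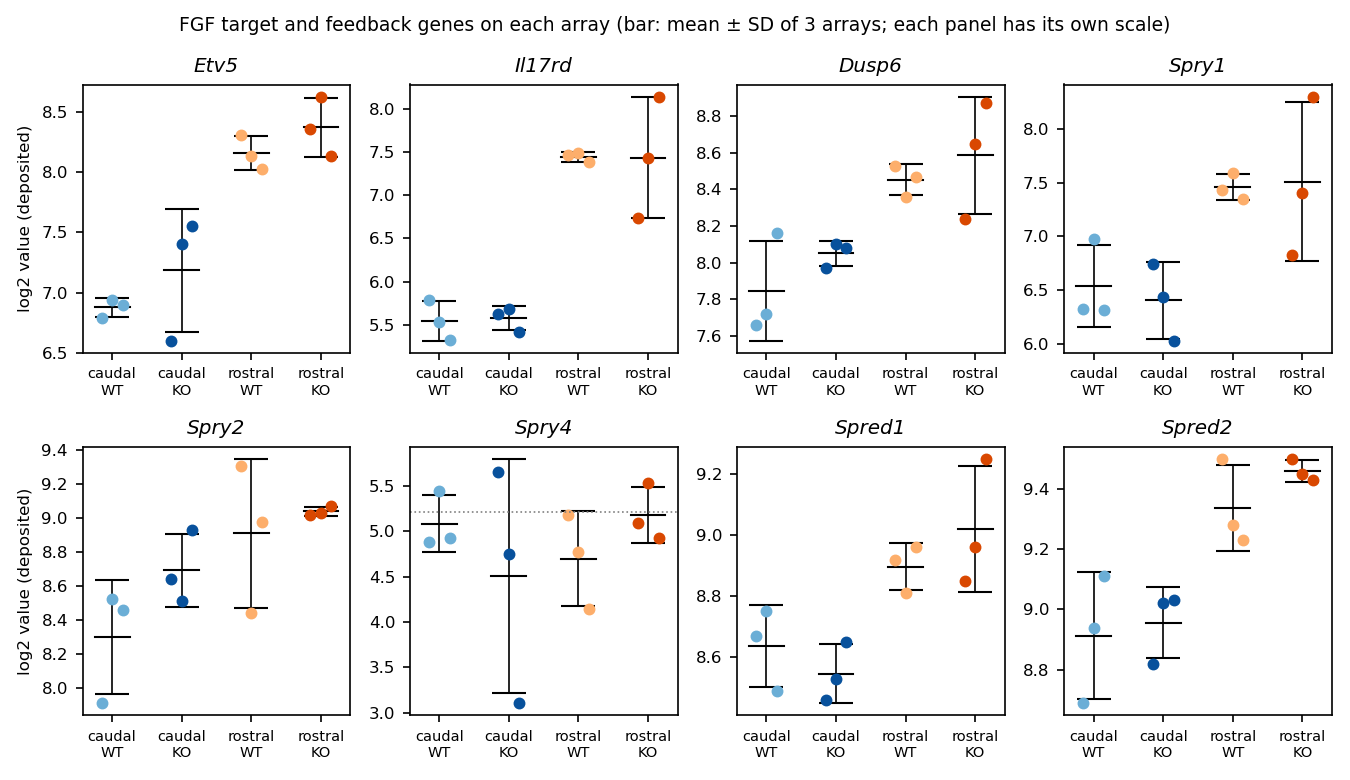
Deposited log2 values (vertical axis, a separate scale in each panel) of the 8 tested genes on the 12 arrays; points are arrays, ordered by animal number within a group, and bars give mean ± SD of 3 arrays. Rostral arrays (orange) lie above caudal arrays (blue) in both genotypes for Etv5, Il17rd, Dusp6, Spry1, Spred1 and Spred2, while Spry4 straddles 5.21, the dotted line.

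Of the ETS factor genes, Etv5 carried the difference on a well measured probe set. It read 6.79, 6.94 and 6.90 in caudal WT cortex (animals 4, 6 and 14) and 8.31, 8.14 and 8.03 in rostral WT cortex (animals 10, 12 and 16). In KO cortex it read 6.60, 7.40 and 7.55 caudally (animals 1, 2 and 13) and 8.36, 8.63 and 8.14 rostrally (animals 7, 8 and 15). The regions did not overlap in either genotype, and caudal KO arrays spread more widely than caudal WT arrays (SD 0.51 against 0.08, n = 3 each). Etv5 was 2.35-fold higher in rostral cortex (a log2 difference of 1.24 with an SE of 0.15, adjusted p = 0.00048 by limma, and between 0.00031 and 0.0052 in 21 alternatives). The differences were 1.28 ± 0.21 in WT (adjusted p = 0.012) and 1.19 ± 0.21 in KO (0.019). Without rostral WT animal 10 the WT difference was 1.20 and did not pass (0.076), and without rostral KO animal 8 the KO difference was 1.07 and did not pass (0.11). The KO call was also lost with the mean of the gene's probe sets (0.76, 0.081), without the intensity trend (0.052) and with the KO arrays fitted alone (0.067).

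Etv4 was dim throughout and was therefore not tested in the fit described. On the probe set 1423232_at its group means were 2.01 ± 0.36 (SD, n = 3) in caudal WT, 4.33 ± 0.40 in rostral WT, 2.96 ± 0.37 in caudal KO and 3.17 ± 0.42 in rostral KO. The rostral WT arrays thus lay above all caudal WT arrays, while the regions overlapped in KO. On 1443381_at the means were 2.35 ± 1.34, 3.67 ± 0.57, 2.33 ± 1.37 and 3.80 ± 0.08 in the same order, with overlap in WT and none in KO, so the probe sets did not give the same picture. With no filter on low values the first probe set did not pass in WT (limma adjusted p = 0.062) or averaged over genotypes (0.085). The regional step did not pass between genotypes either (adjusted p = 0.9995, unadjusted p = 0.0096 by limma). Rostral KO lay below rostral WT, also without passing (adjusted p = 0.82, unadjusted p = 0.036). No value of Etv4 exceeded 4.68, and at such signals no fold is given.

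Il17rd had the largest regional difference of the 8 tested members. Caudal arrays lay close together, at 5.79, 5.53 and 5.33 in WT (animals 4, 6 and 14) and 5.63, 5.69 and 5.42 in KO (animals 1, 2 and 13). Rostral WT arrays read 7.47, 7.49 and 7.38 (animals 10, 12 and 16) and rostral KO arrays 6.74, 7.43 and 8.14 (animals 7, 8 and 15). All rostral arrays stood above all caudal ones, with a tight rostral WT group (SD 0.06) and a wide rostral KO group (SD 0.70). The gene was 3.68-fold higher rostrally (95% confidence interval 2.75 to 4.91, 1.88 ± 0.19 on the log2 scale, limma adjusted p = 0.00015). Its p ranked 16th among all genes tested. It was 1.90 ± 0.27 higher in WT (adjusted p = 0.0061) and 1.86 ± 0.27 in KO (0.0079). The other probe set of the gene, 1452471_at, never exceeded 5.01 and differed by 0.35 in WT and 0.08 in KO with overlap in both, so the result rests on 1429893_at.

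The promoters of 4 members that were higher rostrally are shown, 1 each for the ETS factor, receptor antagonist, phosphatase and Spred roles, because ETS factors bind a short core sequence. They are RefSeq sequences in build GRCm38.p6, on the strand of transcription, that end at the last base before the gene's outermost start, which leaves 213 of 250 bases for Il17rd. The promoter table matched 8 of the 10 listed genes, without Etv4 and Spry4. Capitals mark matches to GGAAGT or CGGAAG, core letters of ETS sites, on either strand. Positions are chr16:22439571-22439820 for Etv5 (minus strand), chr14:27038751-27038963 for Il17rd, chr10:99262981-99263230 for Dusp6 and chr11:19924192-19924441 for Spred2 (plus strand).
Etv5: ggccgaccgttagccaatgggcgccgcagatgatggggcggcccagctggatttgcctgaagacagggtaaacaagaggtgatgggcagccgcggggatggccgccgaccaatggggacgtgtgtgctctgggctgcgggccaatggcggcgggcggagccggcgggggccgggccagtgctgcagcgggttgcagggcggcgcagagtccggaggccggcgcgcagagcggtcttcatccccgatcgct
Il17rd: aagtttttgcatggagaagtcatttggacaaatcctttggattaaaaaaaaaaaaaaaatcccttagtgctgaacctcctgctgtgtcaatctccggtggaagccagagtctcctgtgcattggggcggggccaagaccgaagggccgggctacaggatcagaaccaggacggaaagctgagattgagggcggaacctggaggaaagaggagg
Dusp6: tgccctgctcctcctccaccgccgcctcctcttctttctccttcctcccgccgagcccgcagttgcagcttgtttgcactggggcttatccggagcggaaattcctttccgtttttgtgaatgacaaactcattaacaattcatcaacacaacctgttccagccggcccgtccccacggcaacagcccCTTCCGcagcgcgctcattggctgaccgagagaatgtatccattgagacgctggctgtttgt
Spred2: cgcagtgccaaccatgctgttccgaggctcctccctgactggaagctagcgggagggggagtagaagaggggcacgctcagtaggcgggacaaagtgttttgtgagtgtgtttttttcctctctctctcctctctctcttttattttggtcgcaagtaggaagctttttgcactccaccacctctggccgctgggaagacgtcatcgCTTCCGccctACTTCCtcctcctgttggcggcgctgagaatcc
Dusp6 held 1 match to CGGAAG and Spred2 held 1 match to each motif, all on the opposite strand, and Spred1 held 1 match to CGGAAG. Il17rd, Spry1, Spry2, Etv1 and the outermost start of Etv5 held none, and 1 match to GGAAGT lay before a second start of Etv5 inside the gene. Among 32851 promoter windows of 250 bases, GGAAGT occurred in 19.7% and CGGAAG in 13.6% on either strand, and the motifs can overlap by 5 letters. The longer CCGGAAG, which contains CGGAAG, occurred in 6.9% of windows and in none of these. A match describes letters only and marks no site that was measured here.

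Dusp6, the ERK phosphatase, was higher rostrally by a smaller step. It read 7.66, 7.72 and 8.16 in caudal WT (animals 4, 6 and 14), and 8.53, 8.36 and 8.47 in rostral WT (animals 10, 12 and 16). KO arrays read 7.97, 8.10 and 8.08 caudally (animals 1, 2 and 13) and 8.24, 8.65 and 8.87 rostrally (animals 7, 8 and 15). The regions did not overlap in either genotype. Dusp6 was 1.49-fold higher averaged over genotypes (0.57 ± 0.12, limma adjusted p = 0.012, passing in 21 of 21 alternatives). Neither genotype passed on its own (0.61 in WT, adjusted p = 0.11, and 0.53 in KO, adjusted p = 0.16), but with animals 13 to 16 as an additive term the WT difference passed (adjusted p = 0.037).

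Of the Sprouty genes, which encode inhibitors that act on receptor signalling to RAS, only Spry1 passed in the average over genotypes. Differences among these genes were not tested. Spry1 read 6.32, 6.98 and 6.31 in caudal WT (animals 4, 6 and 14), and 7.43, 7.59 and 7.35 in rostral WT (animals 10, 12 and 16). In KO it read 6.74, 6.44 and 6.03 caudally (animals 1, 2 and 13) and 6.83, 7.40 and 8.30 rostrally (animals 7, 8 and 15). Rostral arrays lay above caudal arrays in both genotypes, but rostral KO animal 7 stood barely above caudal KO animal 1, and animal 15 was the highest of all 12. Spry1 was 2.02-fold higher rostrally (1.01 ± 0.22, limma adjusted p = 0.018), with 0.92 in WT (0.24) and 1.11 in KO (0.12), neither of which passed. Without rostral KO animal 7 the KO difference was 1.45 and passed (0.045), and without rostral KO animal 15 it was 0.71 (0.32).

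Spry2 differed by 0.48 ± 0.14 and did not pass (limma adjusted p = 0.083, 95% confidence interval 0.17 to 0.79). Its values were 7.91, 8.52 and 8.46 in caudal WT and 9.31, 8.44 and 8.98 in rostral WT cortex. They were 8.64, 8.51 and 8.93 in caudal KO and 9.02, 9.03 and 9.07 in rostral KO cortex. Rostral WT animal 12 lay below caudal WT animals 6 and 14, and the KO regions did not overlap. Without that array the difference was 0.60 and passed (adjusted p = 0.021). The other probe set, 1421656_at, differed by 0.30 ± 0.23.

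Spry4 gave no regional difference that could be read at this signal. It read 4.88, 5.45 and 4.93 in caudal WT, 5.18, 4.77 and 4.14 in rostral WT, 5.66, 4.75 and 3.11 in caudal KO, and 5.09, 5.53 and 4.93 in rostral KO cortex. All 4 groups overlapped. The averaged difference was 0.15 ± 0.39 with a 95% confidence interval from -0.69 to 0.98, which leaves a wide range of changes unresolved. The gene's 3 other probe sets never exceeded 4.22.

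Both Spred genes, whose products hold back activation of RAF, were modestly higher in rostral cortex. Spred2 read 8.69, 8.94 and 9.11 in caudal WT and 9.50, 9.28 and 9.23 in rostral WT, against 8.82, 9.02 and 9.03 in caudal KO and 9.50, 9.45 and 9.43 in rostral KO. Spred1 read 8.67, 8.75 and 8.49 in caudal WT and 8.92, 8.81 and 8.96 in rostral WT, against 8.46, 8.53 and 8.65 in caudal KO and 8.85, 8.96 and 9.25 in rostral KO. Neither gene overlapped between regions in either genotype. The differences were 0.46 ± 0.08 for Spred2 (1.38-fold, limma adjusted p = 0.006) and 0.37 ± 0.08 for Spred1 (1.29-fold, 0.023). Spred1 did not pass without any of 5 arrays (caudal WT 14, caudal KO 1 or 2, rostral WT 10 or 16), with values of 0.33 to 0.36 and adjusted p of 0.053 to 0.061. With the additive term both Spred genes passed in KO alone (0.47 for Spred1, adjusted p = 0.037, and 0.50 for Spred2, 0.034). Averaging the 3 tested probe sets of Spred2 lowered its difference to 0.24 (adjusted p = 0.47).

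**Figure D2:**
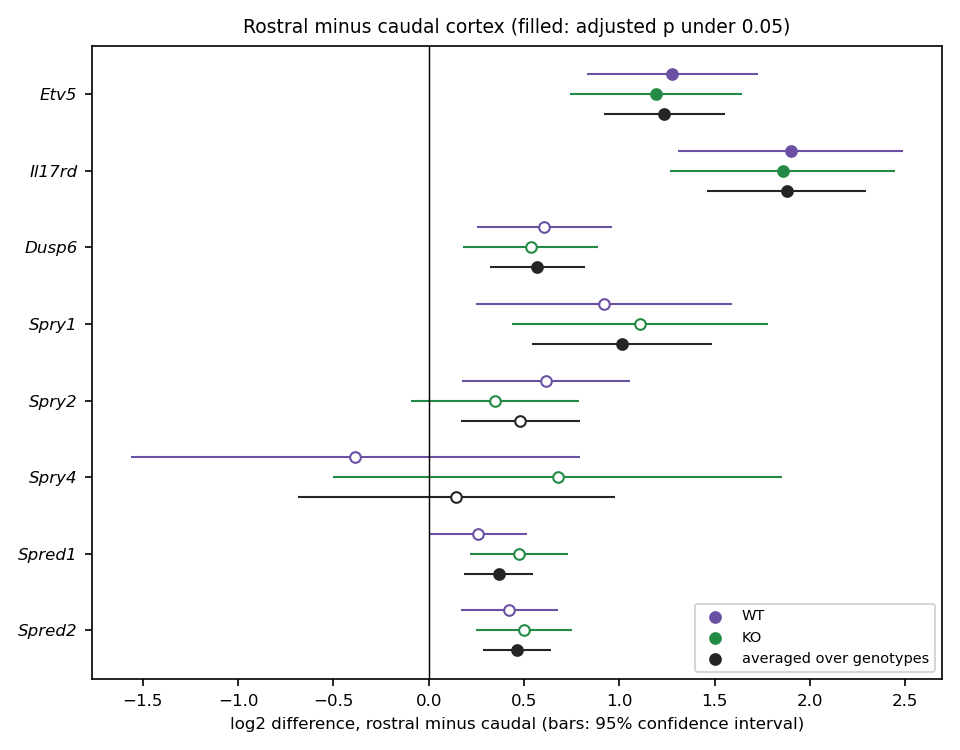
Log2 difference between rostral and caudal cortex (horizontal axis) of the 8 tested genes in WT, in KO and averaged over genotypes; bars are 95% confidence intervals and filled points passed an adjusted p of 0.05. Il17rd and Etv5 passed in each comparison, 4 further genes passed only in the average, and Spry2 and Spry4 passed in none.

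In order of their averaged regional difference the members ran from Il17rd (1.88) over Etv5 (1.24), Spry1 (1.01), Dusp6 (0.57), Spry2 (0.48), Spred2 (0.46) and Spred1 (0.37) to Spry4 (0.15). The 95% confidence intervals of neighbours in this order overlapped, and the steps between members were not tested. These are differences and not levels, which cannot be set against each other between probe sets.

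When all 21288 tested probe sets were fitted on their own, 8 of the 18 tested probe sets of the family were higher rostrally and none was lower, against 1.93% of all probe sets. A positive difference was found for 17 of the 18, and the share over all probe sets was not counted. These 18 belong to 8 genes, with 6 from Spred1 alone, and are repeated readings of them. Some dim probe sets that were not tested read lower rostrally, such as 1423001_at of Spred2 (-0.27 in WT and -1.02 in KO). For Spred1, 6 tested probe sets gave 0.28 to 0.54, of which 1423161_s_at (0.37, limma adjusted p = 0.036) and 1460116_s_at (0.54, 0.0495) passed. For Etv5 they gave 0.74, 1.24 and 0.74, of which the latter pair passed (1428142_at 0.00097 and 1450082_s_at 0.0091). Spred2 was divided: 1434403_at gave 0.46 (0.0097), 1436892_at 0.33 (0.47) and 1441415_at -0.08 ± 0.37 (0.95). Where the probe sets lie in their transcripts was not analysed here.

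**Figure D3:**
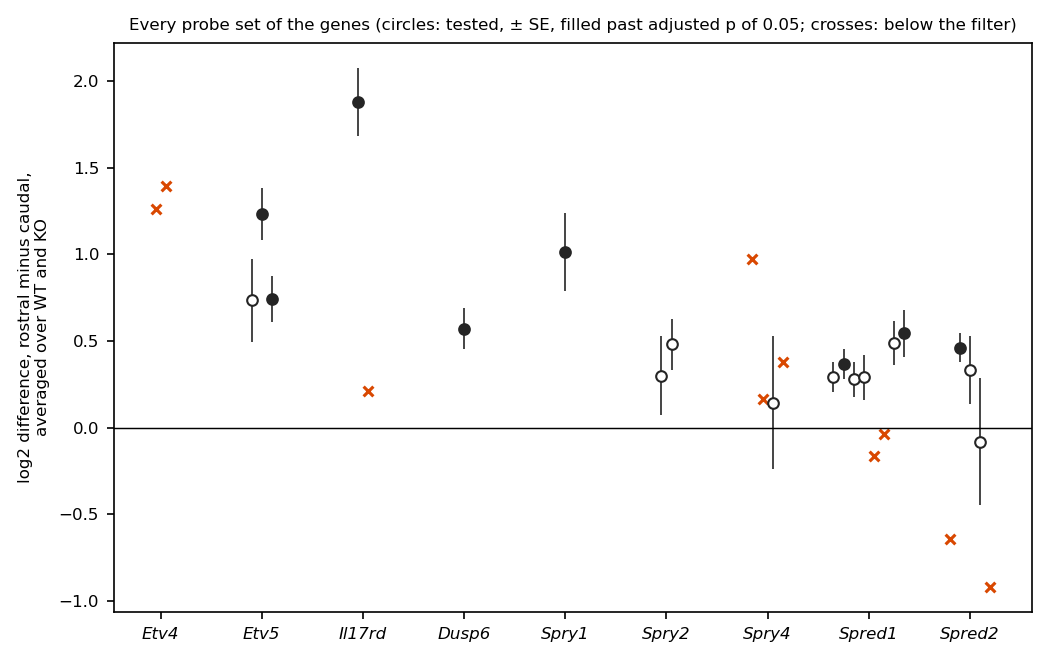
Log2 difference between rostral and caudal cortex, averaged over genotypes (vertical axis), for each of the 28 probe sets, grouped by gene; circles are tested probe sets with ± SE, filled where the adjusted p over all probe sets was under 0.05, and crosses are probe sets below the filter. Of the tested probe sets, 1 of 18 lies below 0 (Spred2), and the dim probe set of Il17rd lies far below its bright one.

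No member passed between KO and WT, whether the caudal arrays, the rostral arrays or the average of both regions were compared. By limma 0, 0 and 4 of 11785 genes passed in these comparisons (0%, 0% and 0.0339%). Tfap2c itself, the targeted gene, did not pass caudally (-1.22) or rostrally (-0.59), so comparisons within a region could miss changes of that size. Averaged over regions Tfap2c passed (-0.91). Without adjustment, 478, 789 and 887 of all genes had p under 0.05, and 0 of the 8 members did in any of the 3 on the probe set that stood for the gene. Averaged over regions, the largest differences were 0.26 ± 0.15 for Etv5 (95% confidence interval -0.06 to 0.58, adjusted p = 0.76) and 0.26 ± 0.14 for Spry2 (-0.05 to 0.58, 0.74). The other tested Spry2 probe set, 1421656_at, lay the opposite way, at -0.75 ± 0.23 on average (unadjusted p = 0.0056 and adjusted p = 0.52 by limma over all probe sets), -0.80 caudally (unadjusted 0.028) and -0.71 rostrally (unadjusted 0.045). The direction for Spry2 therefore depends on the probe set. Il17rd differed by 0.01 (-0.41 to 0.43), Dusp6 by 0.17 (-0.08 to 0.42), Spred2 by 0.08 (-0.09 to 0.26) and Spred1 by 0.02 (-0.16 to 0.20). For Spry1 the interval ran from -0.51 to 0.43 and for Spry4 from -0.88 to 0.79, so changes of such size could have gone unseen.

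The rostral-to-caudal difference itself was compared between genotypes by an interaction term. No gene passed (0 of 11785 by limma, or 0%, 358 at an unadjusted p under 0.05, none of them one of the 8 tested members). The difference in KO minus that in WT was -0.04 for Il17rd (95% confidence interval -0.88 to 0.79), -0.09 for Etv5 (-0.72 to 0.55), -0.07 for Dusp6 (-0.57 to 0.42) and 0.19 for Spry1 (-0.76 to 1.13). For Spred1 it was 0.21 (-0.15 to 0.57), for Spred2 0.08 (-0.28 to 0.43), for Spry2 -0.27 (-0.89 to 0.35) and for Spry4 1.06 (-0.60 to 2.73). All 8 intervals included 0. Without the library labelled rostral KO animal 8, 0 of the 8 members passed in the interaction or between KO and WT rostrally and on average.

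**Figure D4:**
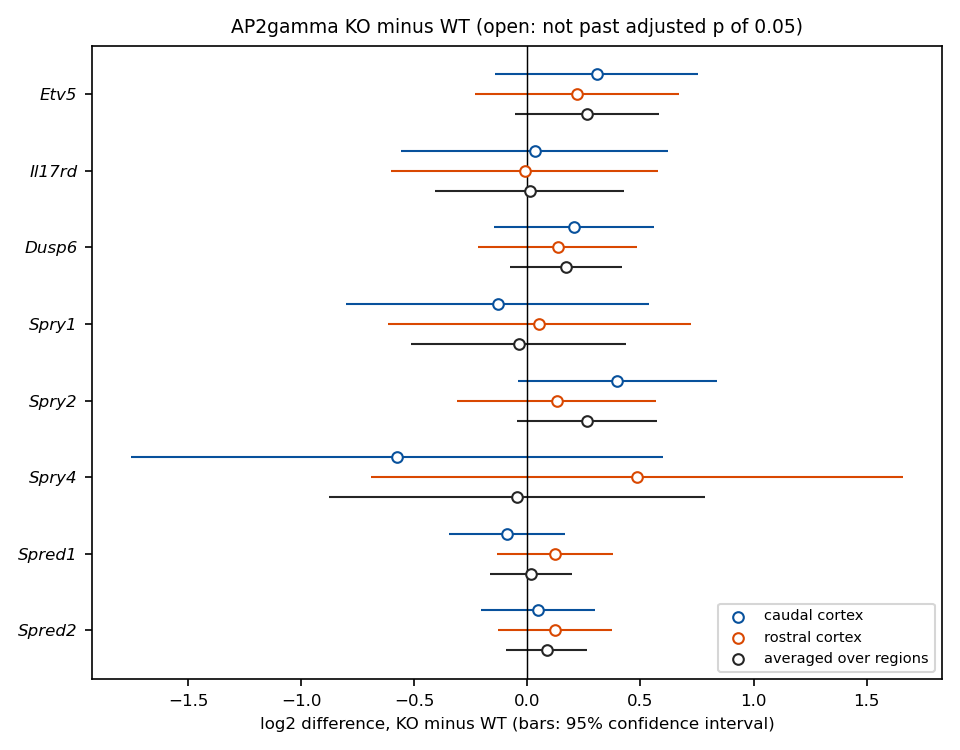
Log2 difference between KO and WT (horizontal axis) of the 8 tested genes caudally, rostrally and averaged over regions; bars are 95% confidence intervals, and open points did not pass an adjusted p of 0.05. All intervals include 0, with the widest for Spry4 and the narrowest for the Spred genes.

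Other genes of the pathway were divided by role in the same averaged regional comparison. Of 15 FGF ligands 3 were bright enough to test. Fgf15 (1.74, limma adjusted p = 0.0042) and Fgf18 (1.20, 0.047) were higher rostrally. Fgf8 and Fgf17, which are among the ligands made at the rostral midline, lay below the limit. For Fgf18 the difference was 2.14 in WT but 0.25 in KO, and for Fgf15 it was 1.87 and 1.61. No ligand passed in KO alone, and the regional step of no ligand passed between genotypes. Of 10 tested receptors and co-receptors 5 were lower rostrally and none was higher. They included Fgfr3 (-1.74, 0.00012), Fgfr2 (-0.52, 0.0042) and Flrt3 (-1.01, 0.00031), which encodes a membrane protein that binds FGF receptors. Of 16 tested adaptors and ERK cascade genes only Gab1, a docking protein gene, passed, lower by 0.39 (-0.39, 0.013), and the median was -0.02.

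Genes related to the members by class were described in the same way. Of 12 other tested brakes on RAS and ERK, Dusp14 was lower (-0.43, limma adjusted p = 0.04) and none was higher, with a median of 0.01, and Spred3, the third Spred gene, differed by 0.63 without passing (0.098). Of 12 other ETS factors Elk3, which encodes a repressor that ERK can convert to an activator, was higher (0.88, 0.0013), with 10 of 12 above 0 and a median of 0.10. Of 11 tested immediate early genes, Myc was higher (0.65, 0.00063) and Fosl2 lower (-1.33, 0.0095). Among 9 tested rostral patterning genes 6 were higher, led by Sp8 (1.84, 0.00049), Robo1 (0.90, 0.0012) and Efna5 (1.51, 0.0016). Among 14 tested caudal and medial patterning genes 5 were lower, led by Nr2f1 (-2.03, 9.7e-05) and Nr2f2 (-2.34, 9.7e-05). In the difference between KO and WT averaged over regions, none of the genes on these 8 lists passed.

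**Figure D5:**
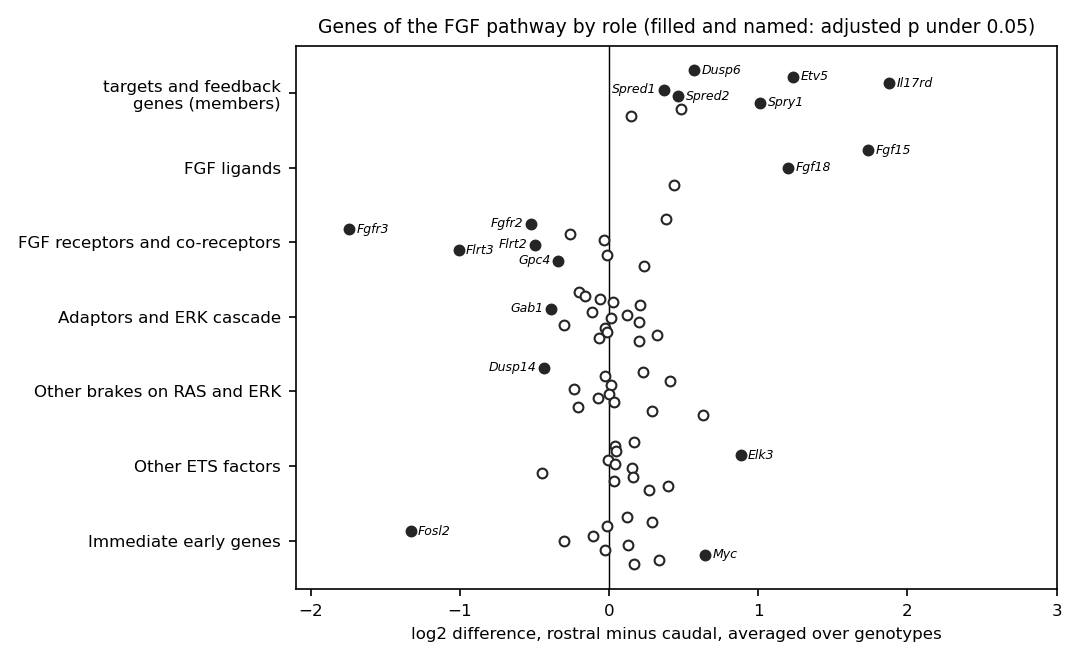
Log2 difference between rostral and caudal cortex averaged over genotypes (horizontal axis) for the members and for the tested genes of 6 lists of the FGF pathway; each point is a gene, filled and named where the adjusted p was under 0.05. The members and the ligands lie to the right of 0, and the named receptors and co-receptors to the left.

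Some markers of neighbouring tissue moved with the region as well. Of 11 tested ganglionic eminence genes 5 were higher rostrally and none was lower (median 1.06), led by Isl1 (4.17, limma adjusted p = 0.00048), Dlx2 (1.06, 0.0039) and Six3 (1.90, 0.0069), and Nkx2-1 and Lhx8 lay below the limit. Their summed signal, relative to the mean of the 12 arrays, ran from 0.514 to 0.818 in caudal and from 0.894 to 2.28 in rostral cortex. Six3 was also on the list of rostral patterning genes, so the counts of these lists are not independent. Of 7 tested olfactory bulb and septum genes 3 were higher, Zic1 (2.91), Cdhr1 (2.59) and Vax1 (1.59), with a summed signal of 0.438 to 0.851 caudally and 0.999 to 1.71 rostrally. Single genes were higher among 8 Cajal-Retzius (Calb2, 1.54), 6 oligodendrocyte lineage (Olig2, 2.03), 6 meningeal (Prrx1, 0.79) and 3 choroid plexus genes (Otx2, 5.30). The choroid plexus gene Ttr lay below the limit. None passed among 9 cortical hem, 11 vascular, 7 microglial, 5 red blood cell and 4 thalamic genes, and Pax6 (0.42) and Tbr1 (0.63) were higher among the cortex markers. The part of such tissue in the members' difference was not tested, and in pieces of tissue more cells of a type and more RNA per cell cannot be told apart. Rostral KO animal 15 had the highest ganglionic eminence sum (2.28) and a meningeal sum of 4.52, against 0.547 to 0.886 on the other 11 arrays. It was also the highest array for Il17rd, Spry1, Dusp6 and Spred1. Without it the same 6 members passed, with 1.70 for Il17rd, 1.29 for Etv5, 0.82 for Spry1, 0.50 for Dusp6, 0.47 for Spred2 and 0.31 for Spred1.

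Animals 13 to 16, of which each group held 1, were also compared apart from animals 1 to 12. In WT the regional difference of Il17rd was 1.82 in animals 1 to 12 and 2.05 in animals 14 and 16, and that of Etv5 1.35 and 1.13. In KO the differences were 1.43 and 2.72 for Il17rd, 1.49 and 0.59 for Etv5, and 0.52 and 2.27 for Spry1. The later numbers rest on a single array per group. All members but Spry4 were higher rostrally in both sets and both genotypes, with the smallest values for Spred2 in WT (0.12) and Spry2 in KO (0.14). The share of all genes with such a pattern was not counted, and the arrays are those of the regional test above. With these animals as an additive term 7 of 8 members passed in the averaged comparison, Spry2 among them (adjusted p = 0.047).

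A difference between the 2 regions that genes share raises their Pearson correlation over the 12 arrays. By this correlation of log2 values, the genes most like each member are given as a description. For Il17rd they were Dusp26 (r = 0.98), Gfra1 (0.98) and the striatal gene Isl1 (0.97). For Etv5 they were Pou3f3 (0.96), Cdh10 (0.96) and Bmpr1b (0.95), and for Spred2 they were Sgce (0.97), Cdh10 (0.97) and Rgs11 (0.95). Spry1 was most like Lin7a (0.97), Six3 (0.96) and Rab36 (0.96), and Dusp6 most like Nap1l5 (0.94), Dlx1 (0.93) and Grm3 (0.93). Spred1 was most like Cxxc4 (0.95), S1pr3 (0.94) and Ctsl (0.94), Spry2 most like Adam9 (0.94), Pcdh10 (0.94) and Camk2n1 (0.93), and Spry4 most like Dcdc2a (0.92), Zbtb21 (0.91) and Fdx1 (0.89). Of the genes named here, Adam9, Pcdh10, Rab36 and those most like Spry4 did not pass in the averaged regional comparison.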

How the data were processed

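Per the labels, 400 ng of total RNA per sample were amplified and labelled with biotin for 1-colour arrays. The deposited table holds 1 log2 value per probe set and array, a unit read from the values (-3.81 to 14.02 with nearly equal medians); the authors' background correction, normalisation and summary method are not given in the sources used here. Values were used as deposited. Probe sets were named by the platform annotation (34958 with 1 gene, 932 with several and 9211 with none, the latter groups left out). All 12 arrays entered 1 limma 3.58.1 fit (R 4.3.3) with 1 mean per group and eBayes with an intensity trend, tested on simulated data first. Two-sided p-values were adjusted by Benjamini-Hochberg over all tested genes, with a threshold of 0.05. Alternatives changed the filter, the choice of probe set, the trend, the arrays fitted and an additive term for animals 13 to 16, and left out each array in turn. The members, group comparisons, 8 pathway and 12 marker lists and the alternatives were chosen with earlier results of these data known. Up to 4 genes per list and direction of smallest p were named, and up to 3 where none passed. Precision is limited by 3 arrays per group.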

Additional observations from a re-analysis of the deposited data

How the results depend on the processing

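No paired analysis was possible because no animal number recurs between groups. Averaged over genotypes, 6 members passed, between 4 (under the stricter filter, which no longer tests Il17rd, Spry1 and Spry4) and 7 under the alternatives run and between 5 and 7 with 1 array left out. All genes passing numbered 526 there, 926 with animals 13 to 16 as an additive term, and 334 (without rostral KO 8) to 559 with 1 array left out. In WT, 2 members passed, 1 under the stricter filter at 7.55, 0 without both arrays of high Xist, 3 with the additive term and 1 to 2 with 1 array left out; of all genes 111 passed, 70 with every probe set fitted, 69 without the trend, 61 with only the groups compared, 257 with the additive term, 22 without the high-Xist arrays and 27 (without rostral WT 10) to 134 with 1 array left out. In KO, 2 members passed, 1 under the stricter filter, with the mean of probe sets, without the trend or with only the groups compared, 4 with the additive term and 1 to 3 with 1 array left out; of all genes 112 passed, 65, 56, 72 and 342 with every probe set, no trend, only the groups and the additive term, and 20 (without rostral KO 8) to 143 with 1 array left out. Between KO and WT, 0 genes passed caudally (4 with the additive term, 0 to 1 with 1 array left out), 0 rostrally (4 with values raised to the table's median, 0 to 1) and 4 on average (2 with raised values, every probe set or no trend, 20 with the additive term, 1 without the high-Xist arrays, 1 to 4 with 1 array left out), and the interaction gave 0 genes, or 1 with the additive term.

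Differences that changed sign were all short of the threshold. With raised values Spry4 gave -0.043 for region in KO, -0.061 for region on average, and 0.071 caudally and 0.089 on average between KO and WT. With the mean of probe sets, KO minus WT was -0.20 for Spry2, 0.15 for Spred1 and -0.11 for Spred2 caudally, -0.091 for Etv5 and -0.29 for Spry2 rostrally, and -0.25 for Spry2 on average, and the interaction of Spred1 was -0.040. Without the high-Xist arrays it was 0.088 for Spry1 caudally, 0.010 for Il17rd and -0.11 for Spry2 rostrally, and 0.10 for Spry1 and 0.063 for Spry4 on average. With 1 array left out, the region difference of Spry4 ran from -0.022 to 1.25 in KO and from -0.20 to 0.43 on average. KO minus WT ran caudally from -0.079 to 0.15 for Il17rd, -0.30 to 0.088 for Spry1, -1.15 to 0.12 for Spry4 and -0.065 to 0.14 for Spred2, and rostrally from -0.36 to 0.34 for Il17rd, -0.34 to 0.40 for Spry1, -0.11 to 0.33 for Spry2 and -0.010 to 0.31 for Dusp6. On average it ran from -0.17 to 0.19 for Il17rd, -0.24 to 0.13 for Spry1, -0.33 to 0.30 for Spry4 and -0.042 to 0.059 for Spred1. The interaction ran from -0.38 to 0.10 for Etv5, -0.40 to 0.31 for Il17rd, -0.21 to 0.53 for Spry1, -0.23 to 0.10 for Dusp6 and -0.019 to 0.19 for Spred2. The cause of these changes was not tested. Signal limits Etv4, which lay under the table's median on every array, and Spry4, which did so on most.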
